A study of Drosophila melanogaster with 3 samples.

Results

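The 8 Hox genes of Drosophila melanogaster, the fruit fly, were examined in a map of tagged Pif1B on chromatin, among 13945 protein-coding genes of the chromosome arms. They are labial (lab), proboscipedia (pb), Deformed (Dfd), Sex combs reduced (Scr) and Antennapedia (Antp) of the Antennapedia complex, and Ultrabithorax (Ubx), abdominal-A (abd-A) and Abdominal-B (Abd-B) of the bithorax complex. All 8 were found by symbol in the annotation, and all lie on chromosome arm 3R. A region was counted for a gene when its summit lay inside the gene or within 5 kb of either end. The intervals between neighbouring genes were read in the same way. Counting at the genes gave 91 of the 29999 regions of the list called on the pooled replicates. It gave 9 of the 6410 regions that passed the irreproducible discovery rate (IDR) filter of the depositors, called IDR peaks here. The pooled list holds background as well as peaks, so a region that is not an IDR peak is not shown to be bound.

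The flies carried a transgene for Pif1B, a protein found as a partner of a PFTAIRE-type cyclin-dependent kinase, whose C-terminus was fused to GFP, a green fluorescent protein used as a tag. Chromatin of whole pupae was sonicated and recovered with an antibody against the tag, then sequenced (ChIP-seq). There was 1 group, with 3 biological replicates from separate biosamples of pooled males and females of unknown age. All samples came from the same tagged line, and neither an untagged line nor the control libraries were analysed here. Because whole animals were used, a region cannot be assigned to a tissue, and a strong signal in few cells cannot be told apart from a weak signal in many.

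Hox genes encode homeodomain transcription factors that give each body segment its identity along the head-to-tail axis. In the fly they sit in a pair of clusters, in an order that matches the order of the segments they specify. Their transcription is held on or off through development by Trithorax and Polycomb group proteins, which act through long intronic and intergenic regulatory regions, and in the pupa they pattern the adult appendages.

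Sequences of 101 bases centred on the summit are shown for 7 of the 9 IDR peaks, and for the strongest Hox region that was not an IDR peak. The pair left out, also at Antp, held neither capitalised word. Sequences are read from the RefSeq FASTA of the dm6 assembly, plus strand. Capitals mark GAGAG, the word bound by GAGA factor, or GCCAT, the core of the Pleiohomeotic site found in Polycomb response elements, on either strand (CTCTC and ATGGC on the strand shown).
Antp intron, signal 375, chr3R:6914488-6914588: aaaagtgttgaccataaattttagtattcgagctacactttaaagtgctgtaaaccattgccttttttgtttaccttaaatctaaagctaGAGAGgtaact
Antp intron, signal 260, chr3R:6951257-6951357: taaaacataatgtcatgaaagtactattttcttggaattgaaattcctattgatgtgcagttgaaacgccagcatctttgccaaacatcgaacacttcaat
Antp intron, signal 133, chr3R:6912683-6912783: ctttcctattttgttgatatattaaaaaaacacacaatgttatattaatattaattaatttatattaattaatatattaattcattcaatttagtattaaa
Antp intron, signal 95.4, chr3R:6954693-6954793: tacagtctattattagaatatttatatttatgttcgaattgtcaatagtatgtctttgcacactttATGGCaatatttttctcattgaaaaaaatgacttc
Ubx intron, signal 104, chr3R:16718172-16718272: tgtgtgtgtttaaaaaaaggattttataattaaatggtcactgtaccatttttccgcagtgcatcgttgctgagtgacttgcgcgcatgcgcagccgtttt
Abd-B intron, signal 123, chr3R:16958264-16958364: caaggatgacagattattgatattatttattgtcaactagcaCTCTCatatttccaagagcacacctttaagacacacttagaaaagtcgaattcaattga
Abd-B intron, signal 106, chr3R:16970018-16970118: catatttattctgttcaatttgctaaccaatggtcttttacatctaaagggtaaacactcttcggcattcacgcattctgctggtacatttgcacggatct
Scr, 3′ flank, signal 72.2, not an IDR peak, chr3R:6818747-6818847: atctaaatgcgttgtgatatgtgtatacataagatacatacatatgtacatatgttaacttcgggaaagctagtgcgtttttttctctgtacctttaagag

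The strongest Antp window held GAGAG and the strongest Abd-B window its reverse complement, while the Antp window with a signal of 95.4 held the reverse complement of GCCAT. The Antp window with a signal of 133 was mostly A and T, at 11.9% GC, and matched TAAT, the core word of homeodomain sites, 14 times on both strands together. The Ubx window, at 41.6% GC, held neither capitalised word.

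Regions of the pooled list were present at every Hox gene, but regions strong enough to be IDR peaks were found at 3 of the 8, Antp, Ubx and Abd-B. A summit from the pooled list lay inside or within 5 kb of 8 of 8 Hox genes, against 68.8% of the 3421 protein-coding genes of 3R. An IDR summit did so for 41.6% of them, and for 68.3% of the 454 that are at least 10 kb long, as every Hox gene is. The strongest region had a signal of 375 at Antp, 123 at Abd-B, 104 at Ubx, 72.2 at Scr, 61.2 at pb, 48.1 at abd-A, 44.9 at lab and 38.6 at Dfd. Signal is the enrichment value that the depositors' peak caller gave to each region. The IDR list was the 6410 strongest regions of the pooled list, so it amounts to a signal limit, with 83.2 the lowest value inside it and 83.1 the highest outside.

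**Figure D1:**
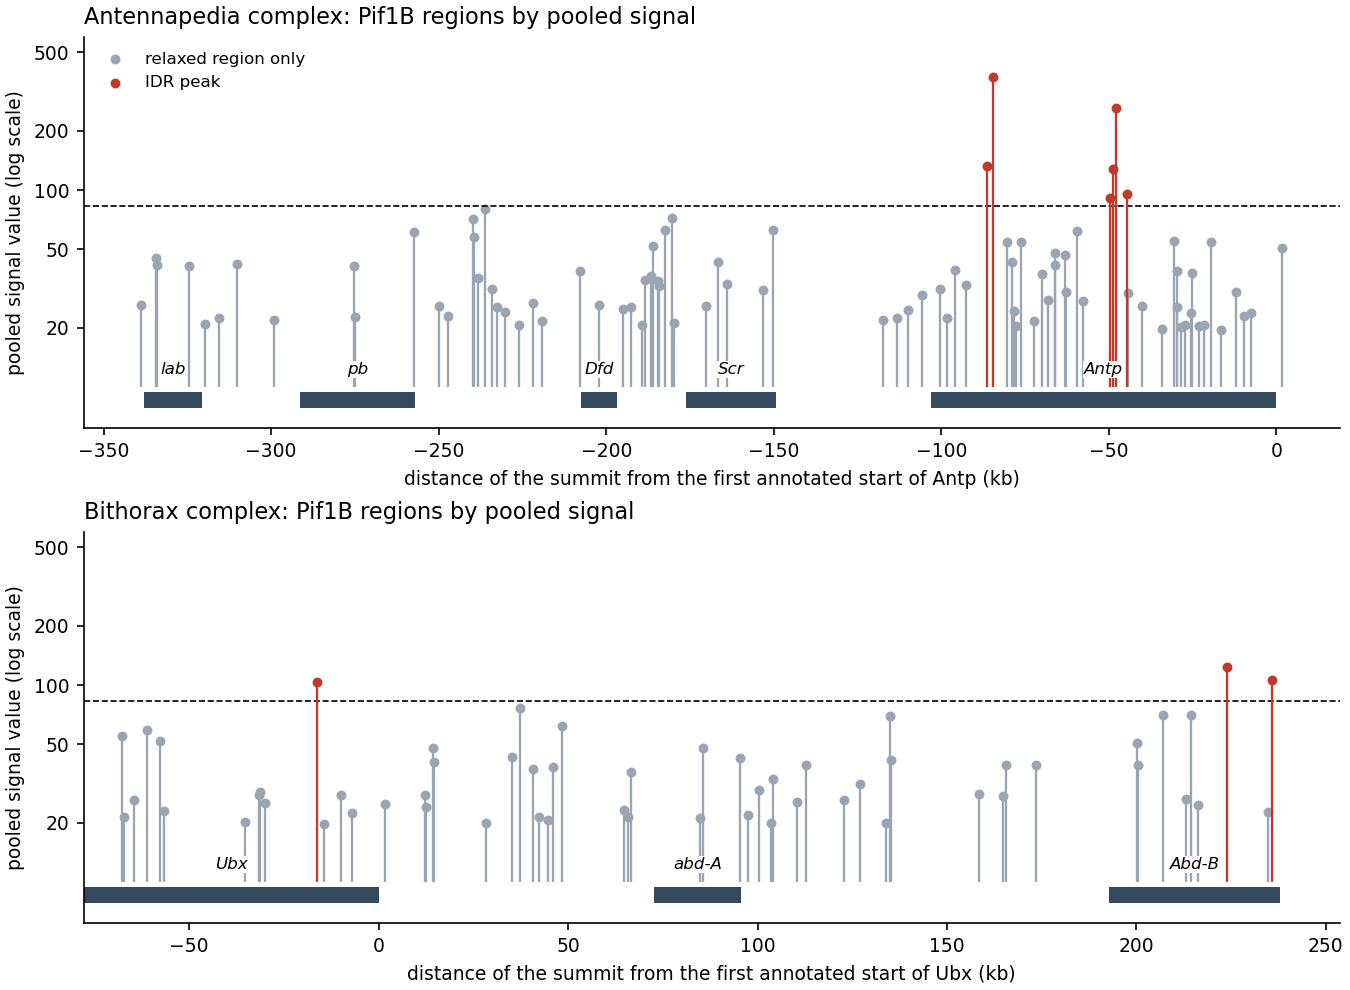
Pooled signal (log scale) of each region across the Antennapedia complex (above) and the bithorax complex (below), plotted by distance in kb from the first annotated start of Antp or Ubx, with genes as dark bars. The 6 IDR peaks of the Antennapedia complex (red) all lie inside Antp, and the dashed line marks the lowest IDR signal, 83.2.

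The Hox genes with their flanks cover 417.5 kb and held regions at about the density of the rest of the arm, with a smaller share of strong ones. Their density was 218 regions per Mb, against 214 on the rest of 3R, a ratio of 1.02. IDR peaks were less dense, at 21.6 per Mb against 45.9 per Mb, a ratio of 0.470. The rest of 3R was taken over its whole length, although its first IDR summit was at position 4186818. Its IDR density without the stretch before that summit would be higher and was not computed. Of the 91 Hox regions, 9.89% were IDR peaks (95% Clopper-Pearson interval 4.62 to 17.9%, which covers counting error only), against 21.4% of the 6782 other regions of 3R (20.5 to 22.4%). The median signal was 30.5 at the Hox genes and 38.7 on the rest of 3R.

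The lower density of strong regions was seen in each replicate taken alone. Among the 6410 strongest regions of each replicate, 11, 7 and 11 lay at the Hox genes in replicates 1, 2 and 3. Divided by the density on the rest of 3R, this gave ratios of 0.586, 0.355 and 0.573 (0.505 ± 0.130, SD, n = 3). For whole replicate lists the ratios were 1.0, 0.853 and 1.08 (0.978 ± 0.115), so the replicate values lie on both sides of equal density. No replicate reached the density of strong regions found on the rest of the arm.

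Antp held most of the strong regions, and was set apart from the other 7 genes here after its values were seen. With its flanks it held 43 of the 91 regions and 6 of the 9 IDR peaks in 113 kb, or 381 regions and 53.1 IDR peaks per Mb. These are 1.78 and 1.16 times the densities of the rest of 3R over its whole length. The value of 1.16 would be lower without the stretch before the first IDR summit, so it is not read as an excess. The other 7 genes, over 304.5 kb, held 158 regions and 9.85 IDR peaks per Mb, or 0.736 and 0.215 times the rest. In the replicates alone, the ratio for strong regions was 1.18, 0.748 and 1.16 at Antp (1.03 ± 0.244) and 0.365, 0.208 and 0.357 at the other 7 genes (0.310 ± 0.0884). The replicate values of Antp and of the other 7 genes do not overlap. Antp was picked from the pooled list of these same replicates, so this separation is not independent support. The replicate values of Antp span the level of the arm taken whole.

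**Figure D2:**
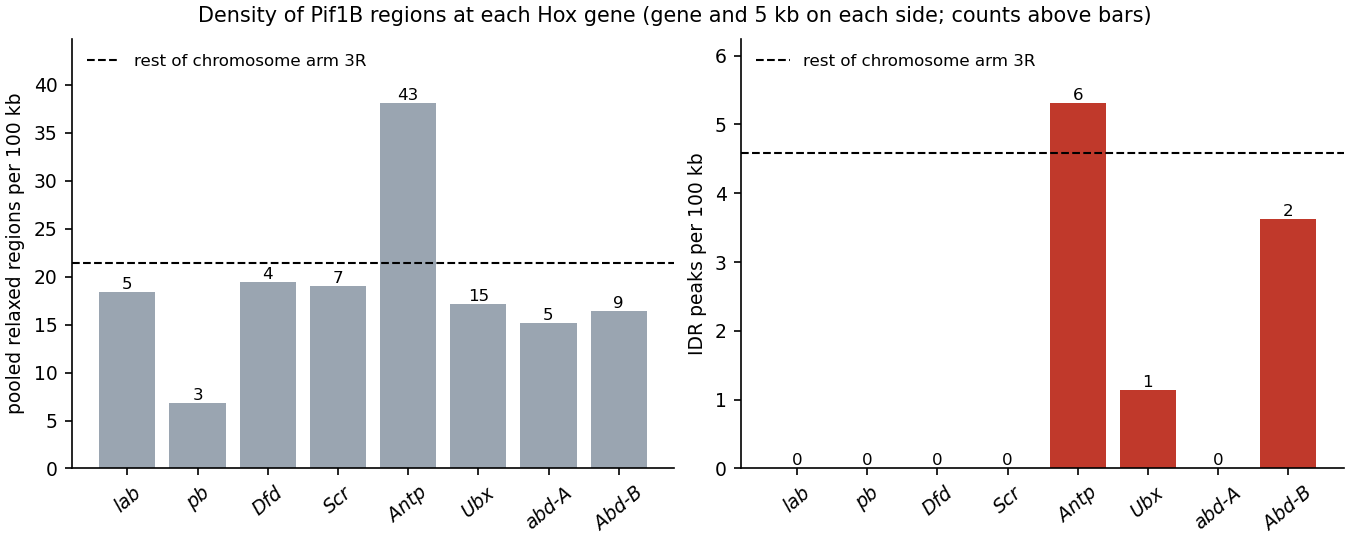
Regions of the pooled list (left) and IDR peaks (right) per 100 kb at each Hox gene with 5 kb on each side, with counts above the bars and the rest of 3R as a dashed line. Antp, with 43 regions and 6 IDR peaks, is the gene above the line in both panels. The line is taken over the whole length of the rest of 3R, including the stretch before its first IDR summit.

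The genes for head segments had weak regions. lab, which acts in the head and the midgut, spans 17.2 kb (chr3R:6661427-6678590, minus strand). It had 5 regions with signals from 20.9 to 44.9. The strongest lay in an intron, 1388 bp from an annotated lab start, and overlapped a neighbouring region of signal 41.6. It ranked 12074, 12390 and 12840 in replicates 1, 2 and 3. The replicates placed it at nearly the same rank, well outside their 6410 strongest regions. No region lay within 500 bp of a lab start.

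pb, which specifies the adult mouthparts, spans 34.3 kb (chr3R:6707800-6742063, minus strand) and had 3 regions, or 6.78 per 100 kb, the lowest density of the 8 genes. Its strongest region (signal 61.2) was at its single annotated start, with the summit 223 bp away, and overlapped a pb exon. It ranked 9297, 16982 and 9780 in the replicates, lower in replicate 2 than in the others. The other regions were an overlapping pair deep in the gene, 18.2 and 17.9 kb downstream of the start, with signals of 40.9 and 22.7.

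Dfd, which specifies the mandibular and maxillary segments, is the one Hox gene on the plus strand (chr3R:6791836-6802428) and the shortest, at 10.6 kb. Its 4 regions had signals from 24.8 to 38.6, and none was present in all 3 replicate lists. The strongest had its summit 400 bp upstream of the start. It ranked 8259 and 18881 in replicates 1 and 2 and was matched by no region of replicate 3. The other 3 regions were matched in replicate 3 alone. Support for Dfd therefore came from different regions in different replicates.

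Scr, which specifies the labial and the first thoracic segment, spans 26.9 kb (chr3R:6823120-6849981, minus strand). It had 7 regions with a median signal of 33.2. The strongest (72.2) lay beyond its 3′ end, near a cluster of lysine tRNA genes, and ranked 9313, 7314 and 14982 in the replicates. The next (62.7) lay 427 bp from an annotated start and ranked 6295, 23855 and 16214. It was within the strongest 6410 regions in replicate 1 alone, and its ranks were the most uneven of the regions at Hox starts that all 3 replicates matched. Scr had 6, 8 and 12 regions in the whole replicate lists (8.67 ± 3.06).

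Antp, whose product gives the thoracic segments their identity and makes legs in place of antennae when expressed in the head, is the longest Hox gene, at 103 kb (chr3R:6896253-6999228, minus strand). Its 3 annotated starts, at 6999228, 6958370 and 6932840, divide it into parts of 40.9, 25.5 and 36.6 kb. Regions were about equally dense in these parts, with 16, 11 and 14 regions or 39.2, 43.1 and 38.3 per 100 kb. IDR peaks were not: they numbered 0, 4 and 2. The strongest region of the upstream part had a signal of 55.1, against 260 in the middle part and 375 in the downstream part.

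The downstream part held a pair of IDR peaks with summits 1.8 kb apart, 20.1 and 18.3 kb downstream of the nearest upstream start. The stronger (chr3R:6914396-6914667, 272 bp wide, signal 375) was the highest signal at any Hox gene and ranked 546 in the pooled list. It ranked 743, 658 and 471 in the replicates. The weaker (chr3R:6912518-6912947, signal 133) ranked 3373, 5211 and 2910. Both were among the strongest 6410 regions of every replicate.

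The middle part held 4 IDR peaks within 8.84 kb of the middle start. The strongest (chr3R:6951253-6951373, 121 bp wide, signal 260) lay 7.06 kb downstream of that start and ranked 1361, 1674 and 917. A peak of signal 128 lay at 7.98 kb (chr3R:6950171-6950600) and ranked 3429, 4323 and 3406. The other peaks of this group were close to the signal limit. The peak of signal 95.4 at 3.63 kb (chr3R:6954528-6954957) ranked 6054, 7470 and 4810, and the peak of signal 90.8 at 8.84 kb (chr3R:6949320-6949749) ranked 7049, 7464 and 7194. The former was thus among the strongest 6410 in replicates 1 and 3, and the latter in none, although every replicate list held it.

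All 6 Antp peaks also lie within CG46458 (chr3R:6896253-6958370), an annotated protein-coding gene that shares the strand, the 3′ end and the middle start of Antp, so they cannot be assigned to Antp alone. Regions at the Antp starts themselves were weak. An overlapping pair of signals 41.6 and 48.1 lay 236 and 450 bp from the downstream start, and neither of the other starts had a region within 500 bp. The replicates held 40, 36 and 42 Antp regions in all (39.3 ± 3.06) and 6, 4 and 6 among their strongest (5.33 ± 1.15). Antp was not extreme among long genes: 52 of the 454 genes of 3R of at least 10 kb had 6 or more IDR peaks, up to 17. Their median was 1 peak, or 4.14 per 100 kb, beside 5.31 per 100 kb at Antp.

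Ubx, which specifies the posterior thorax and the haltere, spans 77.8 kb (chr3R:16656623-16734426, minus strand) and had 15 regions. Its IDR peak (chr3R:16718007-16718436, signal 104) lay in an intron, 16.2 kb downstream of the single Ubx start and 1905 bp from the start of the antisense transcript asRNA:PS4. It ranked 6057, 5753 and 5602 in the replicates, and so was just within the strongest 6410 in each. Ubx had 2, 1 and 1 such strong regions in the replicates (1.33 ± 0.577), and the strongest in replicate 1, at rank 3063, overlapped none of its pooled regions. The next regions, at signals of 59.3, 55.0 and 51.8, lay 57.8 to 67.8 kb downstream of the start, toward the 3′ end of the gene. Ubx had no region within 500 bp of its start, and the nearest summit was 1745 bp upstream (signal 24.8).

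abd-A, which specifies abdominal segments, spans 22.8 kb (chr3R:16807214-16830049, minus strand) and had 5 regions and no IDR peak. Its strongest (48.1) was intronic, 8.08 kb downstream of a start, and ranked 12955, 21189 and 10540. A region of signal 42.8 lay 125 bp from a start and ranked 13803, 23317 and 9095. In both cases replicate 2 gave the lowest placing.

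Abd-B, which specifies the posterior abdomen and the genitalia, spans 45.0 kb with 6 annotated starts (chr3R:16927212-16972236, minus strand). Its 9 regions had a median signal of 50.5, the highest of the 8 genes. The IDR peak of signal 123 (chr3R:16958099-16958528) lay in an intron 1967 bp from the nearest start and ranked 4245, 2665 and 6296. The other, of signal 106 (chr3R:16969853-16970282), lay 1494 bp from the nearest start and ranked 4687, 6035 and 6391. Regions of signal 70.7 and 70.3 missed the limit in the pooled list but were within the strongest 6410 of replicate 3, at ranks 6164 and 5855. Abd-B therefore had 2, 2 and 4 strong regions in the replicates (2.67 ± 1.15).

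**Figure D3:**
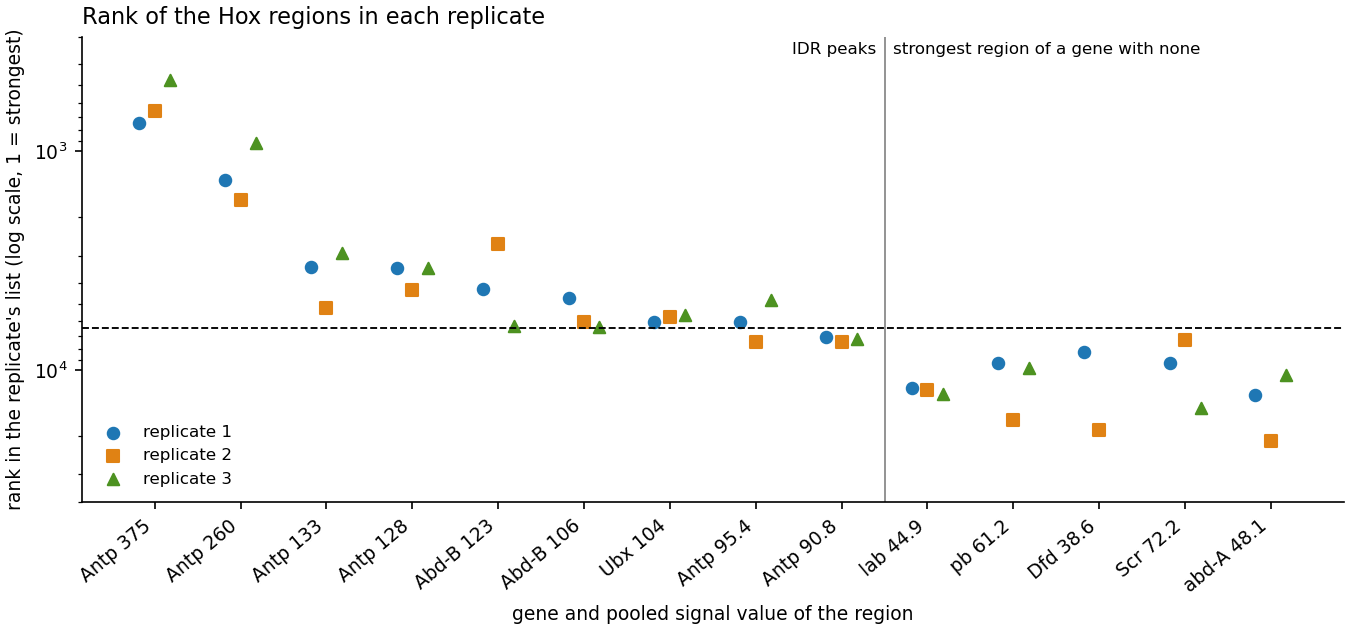
Rank (log scale, 1 the strongest) in each replicate of the 9 Hox IDR peaks, left, and of the strongest region of each gene without an IDR peak, right, with the pooled signal beside each gene name and a dashed line at rank 6410. No point is drawn where the replicate held no overlapping region, as for Dfd in replicate 3, and every point on the right lies below the line.

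Of the 9 IDR peaks, 7 were overlapped by the strongest 6410 regions of all 3 replicates, or 77.8% (40.0 to 97.2%), against 64.1% of the 1453 IDR peaks on the rest of 3R (61.6 to 66.6%). Among the 82 other Hox regions, 32 were matched in all 3 whole lists, or 39.0% (28.4 to 50.4%), against 45.9% on the rest of 3R (44.6 to 47.3%). The Hox intervals contain the values of the arm in both cases.

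The strong regions lay in introns and away from starts. All 9 IDR summits were intronic and none of the 9 regions overlapped an exon, while on the rest of 3R 44.3% of IDR summits were intronic and 37.6% lay within 500 bp of a start. An IDR summit lay within 500 bp of an own start at 0 of 8 Hox genes, against 14.9% of the protein-coding genes of 3R and 34.1% of those of at least 10 kb. A pooled-list summit did so at 6 of 8, all but lab and Ubx, against 31.7% and 68.5%. Their signals were 62.7 at Scr, 61.2 at pb, 50.5 at Abd-B, 48.1 at Antp, 42.8 at abd-A and 38.6 at Dfd. Over all 91 Hox regions, 75.8% of summits were intronic and 12.1% at a start of any gene, against 48.3% and 24.1% on the rest of 3R. Antp held 38 of the 69 intronic summits. The Hox zones are mostly the bodies of long genes, and these shares were not matched for the length of introns or the number of starts.

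The intervals between neighbouring Hox genes held no IDR peak, in 6 of 6. For scale, 43 of the 283 windows of 100 kb of 3R that hold a region of the pooled list had 0 IDR peaks. Every interval was shorter than such a window, and a shorter stretch has less room for a peak. The shares are therefore not like for like. From lab to Antp there were 4, 13, 11 and 4 regions in the intervals lab to pb, pb to Dfd, Dfd to Scr and Scr to Antp, of 29.2, 49.8, 20.7 and 46.3 kb. The Dfd to Scr interval, which holds the microRNA gene mir-10 and lysine tRNA genes, had the densest regions, at 53.2 per 100 kb. The Scr to Antp interval, which holds the segmentation gene ftz, had the sparsest, at 8.64 per 100 kb. In the bithorax complex there were 16 regions in the 72.8 kb between Ubx and abd-A and 15 in the 97.2 kb between abd-A and Abd-B.

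Regions just below the limit lay in these intervals. The strongest (chr3R:6762883-6763312, signal 79.9) was 306 bp from the start of Ama, which encodes an immunoglobulin-domain cell adhesion protein, and ranked 7046, 6416 and 8110. In the intron of the noncoding gene bxd, part of the Ubx regulatory region, a region of signal 76.0 (chr3R:16771590-16772019) ranked 11670, 15315 and 5714. At the start of bcd, the anterior determinant of the embryo, a region of signal 71.0 ranked 5439, 18976 and 6561. In the intron of the noncoding iab8 transcript, between abd-A and Abd-B, a region of signal 69.3 ranked 9841, 13475 and 7510. The Ama region varied least between replicates, and the bcd region was within the strongest 6410 in replicate 1 alone.

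Of 62 other annotated genes of the complexes, 20 had a pooled-list summit within 500 bp of a start and 0 an IDR summit. Most of the 20 were among the 44 noncoding genes, for which no share over the arm is given here. Some of them share a region: that of signal 20.7 counts for mir-10 and for entries inside it, and that of 36.2 for CR45750 and TS16. Among the 18 protein-coding genes of the 62, the counts were 2 and 0, against 31.7% and 14.9% of the protein-coding genes of 3R. The gene with IDR summits inside it was CG46458. Of zen, zen2, bcd and ftz, which derive from Hox genes, and their neighbour Ama, 4 of 5 had a region inside or within 5 kb and 0 an IDR peak, against 68.8% and 41.6% of the protein-coding genes of 3R. These genes share regions: the Ama region also counts for bcd, and the region counted for zen2 is that at the pb start. The one without a region was ftz.

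The distance from one IDR summit to the next shows how far the gaps extend. On 3R the 1461 such stretches had a median length of 6.02 kb, and 12 were at least 200 kb long. The longest, 485 kb, ran from a summit left of the Antennapedia complex at 6427764 (signal 109) to the Antp peak at 6912733, and contained lab, pb, Dfd and Scr whole. It held 73 regions of the pooled list, 15.1 per 100 kb, with signals up to 79.9, and no unsequenced base. Of its length, 234 kb lay left of lab, outside the complex, and it held 39 protein-coding genes, or 8.04 per 100 kb against 10.7 on the whole arm. Over the chromosome arms together it was the third longest of 6404 stretches, the longest being 801 kb.

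The stretch around abd-A, from the Ubx peak at 16718222 to the Abd-B peak at 16958314, was 240 kb long and the eighth longest on 3R. That rank was not stable. It was 15, 14 and 13 when peaks needed support from both other replicates without replicates 1, 2 and 3. The rank was 16 with support from all 3, and 21 in replicate 3 alone. In replicates 1 and 2 alone it was 8, and with the stronger 3205 IDR peaks it was 3. The stretch held 43 regions, 17.9 per 100 kb, with signals up to 76.0. The rest of 3R held 214 regions per Mb, of which 45.9 per Mb were IDR peaks. Both this stretch and the longest one hold no inner IDR summit by definition. Their densities are therefore not like for like with that of the rest. In the strongest 6410 regions of each replicate alone, the stretch around lab and pb was 336, 344 and 356 kb long (345 ± 10.2), and was the longest on 3R in each. It ended earlier on the right, at bcd in replicate 1 and between Dfd and Scr in replicates 2 and 3. In replicate 1 the next stretch, of 89.2 kb, contained Dfd and ended inside Scr, at the region near its start, and in replicates 2 and 3 Scr lay in a separate, shorter stretch that ended at an Antp peak. The stretch around abd-A was 240, 240 and 170 kb long (217 ± 40.7), shorter in replicate 3, where a bxd region and an Abd-B region bound it.

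**Figure D4:**
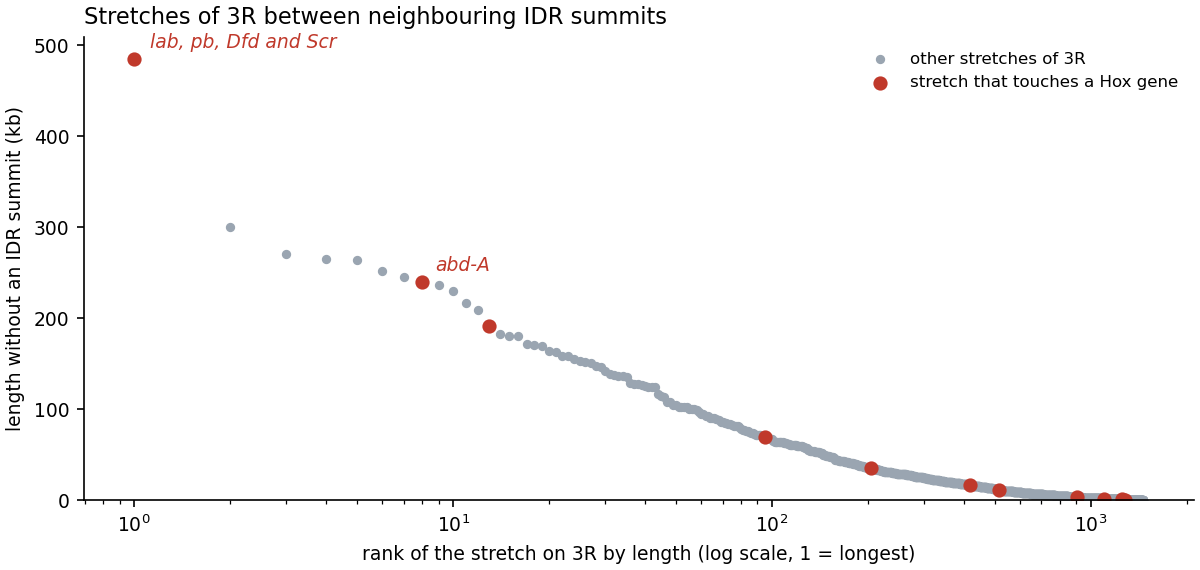
Length in kb of each stretch of 3R between neighbouring IDR summits, plotted by its rank (log scale), with the stretches that touch a Hox gene in red. The stretch with lab, pb, Dfd and Scr is the longest, at 485 kb, and that with abd-A the eighth, at 240 kb.

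Short words known from Hox regulation were found at Hox summits about as often as elsewhere. In windows of 101 bases, on both strands, GAGAG was found in 14 of the 91 Hox windows (15.4%, against 14.1% of all 29998 windows on the chromosome arms). GCCAT was found in 17 (18.7% against 15.5%), TAAT in 56 (61.5% against 66.2%) and TGATNNAT, the joint site of Hox proteins and their cofactor Extradenticle, in 5 (5.49% against 7.21%). TATCGATA, the word bound by DREF at promoters of growth genes, was in 0 of the Hox windows and 0.383% of all. GCCAT and TGATNNAT can overlap TAAT or each other, and no overlap was removed. Among the 9 IDR windows, GAGAG was in 2 (22.2%, against 16.5% of all 6410 IDR windows on the arms) and GCCAT in 1 (11.1% against 12.3%). TAAT was in 7 (77.8% against 70.5%) and TGATNNAT in 1 (11.1% against 7.3%). Their GC content was 29.3% ± 9.09 (SD over 9 windows), against a mean of 35.5% in all IDR windows and 37.5% ± 11.0 in all Hox windows.

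Genes for Hox partners and other homeobox genes were read in the same way. Of 6 genes for Hox cofactors and partners, 3 had an IDR peak (hth, tio and disco-r), against 42.1% of all protein-coding genes of the arms. hth, which encodes the Homothorax partner of Extradenticle, is 132 kb long and lies on 3R. It had 11 IDR peaks among 90 regions, with signals up to 213, and a peak of 99.4 at a start. tio, a relative of teashirt, had a start peak of 97.4, and disco-r had 2 IDR peaks of up to 113 away from its starts. The other 3 had regions of up to 65.1 at exd, 62.6 at disco and 52.9 at tsh.

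Of 41 other homeobox genes outside the complexes, 19 had an IDR peak inside or within 5 kb, or 46.3%, against 42.1% of all protein-coding genes of the arms. An IDR summit lay at a start of 10 of the 41, or 24.4%, against 15.6%. These shares were not matched for gene length. Among the genes of 3R of at least 10 kb, the shares were 68.3% and 34.1%. Of the genes named next, Dll, ct, so and oc are at least that long, and tin is 2.99 kb. The strongest start peaks were at tin, a heart and muscle regulator (496), Dll, a limb gene (248), ct, which acts in sense organs and the wing margin (228), so, an eye gene (133), and oc, a head gene (121).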

How the data were processed

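ChIP-seq regions were read from the dm6 narrowPeak lists, and the dm3 lists were not used. Per the deposited text files, relaxed lists of peaks and background were called for each replicate and for the pooled replicates, and the IDR list came from these. No source used here gives the aligner, the peak caller or the threshold of the IDR filter. The deposited signal value of each region was used as the authors wrote it.

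The replicate lists held 29999, 29999 and 30000 regions, a nearly fixed length, so depth is unknown and replicates were compared by rank. A replicate matched a region on an overlap of at least 1 bp, and the best rank is given. Genes came from the Ensembl annotation of BDGP6, without transposable elements. Summits were classed as start (within 500 bp), then exon, intron or intergenic. Of the 91 Hox regions, 89 were 430 bp wide and 18 overlapped another. No test was run, since there is 1 group.

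The members and gene lists were chosen with earlier results of these data known. Named were all 8 members, the IDR peaks of the complexes, the strongest region of each member, genes of the complexes, and the 5 strongest start peaks of each list. Other regions and genes were named after their values were seen. Counting used Python 3.11.15 with pandas 2.3.3 and numpy 2.4.6, intervals scipy 1.17.1, and figures matplotlib 3.10.9, and was checked on simulated regions.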

Additional observations from a re-analysis of the deposited data

How the results depend on the processing

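Of 74 alternatives, 61 moved a result by less than its limit and 13 by more. The limit was the interval of the share of IDR peaks, a fixed fold difference for counts, and the replicate SD for the other results. A change of direction was defined for the density ratio and the median signal alone, where 0 alternatives changed it. With the stronger 3205 IDR peaks (signal of at least 137), the Hox genes and the complexes each had 2 IDR peaks, both at Antp, so 1 gene and 2.2% of regions were left and the density ratio to the rest of 3R was 0.214. The abd-A stretch was then 462 kb, at rank 3 on 3R, and the stretch with lab, pb, Dfd and Scr was 490 kb, at rank 2. A distance of 250 bp left 3 of 8 genes with a region at a start, in place of 6. Over the protein-coding genes of 3R the share was 25.2% at 250 bp and 31.7% at 500 bp. The median signal relative to the rest of 3R, 0.79, was 0.855 for gene bodies alone and 0.822 for ranks averaged over replicates. In single replicates the stretch around lab was 336, 344 or 356 kb long, and that around abd-A 170 kb in replicate 3. Requiring support from both other replicates, with each replicate left out in turn, gave 7 to 8 IDR peaks, shares of 7.69 to 8.79% and ratios of 0.502 to 0.574, with 3 genes and 0 starts throughout. The causes were not tested. The stretches, and counting overlapping regions once (82 regions), were chosen after seeing the data. No paired analysis was possible because there is 1 group. Depth being unknown, regions below the lowest signal of the pooled list, 19.4, cannot be read.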
